A study of Mus musculus with 30 samples.

Results

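The 45 genes described here act in the G2 phase and in mitosis, and were taken by symbol from gene tables that list 23420 genes. All 45 were found and all 45 passed the filter on low counts, among 12611 genes tested. RNA was sequenced from 30 libraries, 3 in each of 10 groups of cultured mouse helper T cells. The groups are the IL-10 positive and the IL-10 negative cells of the Tr1, Th1, Th2, Th17 and pTh17 cultures. All mice were C57BL/6, with GFP reporting Foxp3 and Thy1.1 reporting IL-10 in every group. Their naive CD4 cells grew for 72 h on irradiated splenocytes depleted of CD4 cells, 6 per T cell, with soluble anti-CD3 (2.5 ug/ml). The Tr1 culture had IL-27 (25 ng/ml), Th1 had IL-12 (20 ng/ml) and Th2 had IL-4 (20 ng/ml). The Th17 culture, the non-pathogenic form, had TGF-b1 (2 ng/ml) plus IL-6 (25 ng/ml). The pTh17 culture, the pathogenic form, had IL-1b (20 ng/ml) and IL-23 (20 ng/ml) plus IL-6 (25 ng/ml). Live, GFP negative T cells were sorted by reporter, 2000 to a library, so that cells with Foxp3 were left out of all groups. No source used here gives the age of the mice or says whether replicates were separate animals or cultures. The p-values therefore judge differences between groups against the spread of libraries within groups, and that spread may be technical.

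A dividing cell commits to mitosis when the kinase Cdk1, bound to cyclin A or cyclin B, becomes active. Kinetochores then attach chromosomes to the spindle, the spindle checkpoint holds the cell back until all are attached, and the anaphase-promoting complex marks cyclin B and securin for destruction so that sister chromatids part. Most of these genes are transcribed from late S phase to mitosis and kept silent in resting cells, and naive T cells divide rapidly after activation.

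Il10 itself was higher in the IL-10 positive cells of every culture, by log2 fold changes of 3.62 to 6.47, which checks the labels. The depth of a library was 4394704 to 11850597 expected counts. Replicates of a group correlated at r of 0.97 to 0.99 (log CPM across genes, which are not independent replicates). Tr1 IL-10 positive replicate 18 had the largest share of counts in its 10 highest genes, 32.8%, against 24.9% and 24.6% in the other Tr1 IL-10 positive libraries. Markers of T cells were present in all groups. Marker lists of other cell types were low but differed with IL-10. Summed levels of 6 NK cell genes were 60.4 to 69.1 CPM in IL-10 positive and 5.69 to 6.5 CPM in IL-10 negative Tr1 libraries, and 82.5 to 85.8 CPM against 7.95 to 8.53 CPM in Th1 libraries. Nearly all of this was Klrk1, with group means of 61.9 against 5.08 CPM in Tr1 and 82.4 against 7.28 CPM in Th1. Every other NK cell gene was below 1 CPM in these groups. Klre1 was at 0 in both Tr1 groups and in IL-10 negative Th1 libraries, Klra8 in IL-10 negative Tr1 libraries and Ncr1 in IL-10 positive Th1 libraries. Of the 3 NK cell genes tested, 1 was higher in Tr1 and 2 in Th1. Summed levels of 13 B cell genes were 227 to 311 CPM in IL-10 positive and 114 to 125 CPM in IL-10 negative pTh17 libraries, with 9 of the 10 tested higher and Blk at 0 in IL-10 negative ones. Summed levels of 11 myeloid genes were 246 to 262 CPM in IL-10 positive and 77.8 to 81.4 CPM in IL-10 negative Th1 libraries, with 4 of the 8 tested higher, Lyz1 at 0 in both and Emr1 at 0 in the IL-10 negative ones. In Th17 libraries these myeloid genes summed to 97.9 to 101 CPM in IL-10 positive and 48.6 to 65 CPM in IL-10 negative cells, with 2 of the 8 higher and 1 lower. These genes also summed to more in IL-10 positive than in IL-10 negative libraries of Th2 (181 to 194 against 111 to 132 CPM), pTh17 (98.9 to 117 against 91.6 to 97.6 CPM) and Tr1 cultures (74.9 to 79.5 against 54.0 to 56.2 CPM), with 1, 3 and 3 of the 8 higher. The B cell genes did so in Th1 (47.0 to 57.3 against 17.3 to 21.4 CPM), Th2 (46.7 to 63.6 against 40.4 to 43.1 CPM) and Th17 cultures (21.2 to 24.3 against 7.04 to 10.8 CPM), with 3 of the 10 tested higher in each and 1 lower in Th17. In Tr1 cultures they overlapped, at 12 to 16.6 CPM in IL-10 positive and 9.09 to 13.1 CPM in IL-10 negative libraries, and 0 of 10 were called. Both CD8 genes were higher in IL-10 positive Tr1, Th1 and Th2 cells. Single genes made up much of these sums. In Th1 cells Cst3 had 179 CPM in IL-10 positive and 59.8 CPM in IL-10 negative groups, and Itgam 69.1 and 19.1 CPM (group means). In pTh17 cells H2-Ab1 had 142 CPM in IL-10 positive and 107 CPM in IL-10 negative groups. Whether such genes came from other cells or from the T cells was not tested. The part of any other cells in the results below was not tested either.

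IL-10 positive cells carried more of nearly all these transcripts than IL-10 negative cells in 4 of the 5 cultures, and more of 22 of them in Th2 cultures. The differences were under 2-fold in Th2 and pTh17 cultures and more than 10-fold for most genes in Tr1 cultures. Differences are log2 fold changes, IL-10 positive over IL-10 negative, given with their standard error, and a gene was called where edgeR's quasi-likelihood test gave a Benjamini-Hochberg adjusted p below 0.05 over all genes tested. In Tr1 cultures 43 of the 45 genes rose, 1 fell and the median was 3.64, while 20.5% of all genes tested were higher, 14.2% lower, and their median was 0.05. Th17 cultures gave 44 higher and 1 lower with a median of 3.23, where 29.2% of all genes were higher, 28.9% lower, and their median was -0.04. Th1 cultures gave 43 higher and 1 lower with a median of 1.19, where 23.5% of all genes were higher and 20.4% lower. The remaining cultures showed the same direction at a smaller size. In pTh17 cultures 44 rose and none fell, with a median of 0.48, against 10.1% higher and 8.33% lower among all genes. In Th2 cultures 22 rose and none fell, with a median of 0.25, against 12.3% higher and 9.49% lower. At an unadjusted p below 0.05 edgeR gave 1 gene lower, Kif23, in Th2 and 0 in pTh17 cultures, and DESeq2 called 1 lower in Th2 and 0 in pTh17. A rise of at least 2-fold was called for 42 genes in Tr1, 42 in Th17 and 28 in Th1 cultures, where 8.66%, 11.2% and 7.18% of all genes had one. It was called for 0 in pTh17 and Th2 cultures, where 2.57% and 2.51% of all genes had one, and for 40 in the average over the 5 cultures (5.4%). Without any model, the 3 IL-10 positive libraries lay wholly above the 3 IL-10 negative ones (in CPM) for 43 genes in Tr1, 44 in Th17, 43 in Th1, 43 in pTh17 and 38 in Th2 cultures. Of all genes 23.7% did so in Tr1, 31.2% in Th17, 26.8% in Th1, 17.4% in pTh17 and 20.9% in Th2. They lay wholly below for 1 gene in Tr1, Th17 and Th1, 0 in pTh17 and 2 in Th2 cultures, against 17.6% of all genes in Tr1, 31.2% in Th17, 24.5% in Th1, 15.3% in pTh17 and 17.8% in Th2. Averaged over the 5 cultures 43 rose and 1 fell, with a median of 1.76, where 29.6% of all genes were higher and 28.2% lower. At the ends of this average stood Smc4 (-0.40 ± 0.03) and Bub1 (2.58 ± 0.09).

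The calls in Tr1 and Th17 cultures held without any single library, among the 30 libraries left out in turn. The Th2 count did not. It was 11 without IL-10 negative replicate 8, 13 without IL-10 negative replicate 7 and 14 without IL-10 positive replicate 7, and 11 of its 22 genes kept their call without each of the 30 libraries. The 11 lost without 1 library or another were Ccna2, Bub1, Nusap1, Tpx2, Kif2c, Prc1, Ect2, Ncaph, Mad2l1, Nuf2 and Cdca8. In pTh17 cultures 33 of the 44 kept their call, and those lost were Ccnb2, Kif20a, Kif23, Kif2c, Kif4, Cenpa, Cenpe, Ttk, Smc4, Espl1 and Mad2l1. In Th1 cultures Ttk alone was lost. In bulk libraries such as these, fewer cells in mitosis and less mitotic RNA in each cell cannot be told apart.

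**Figure D1:**
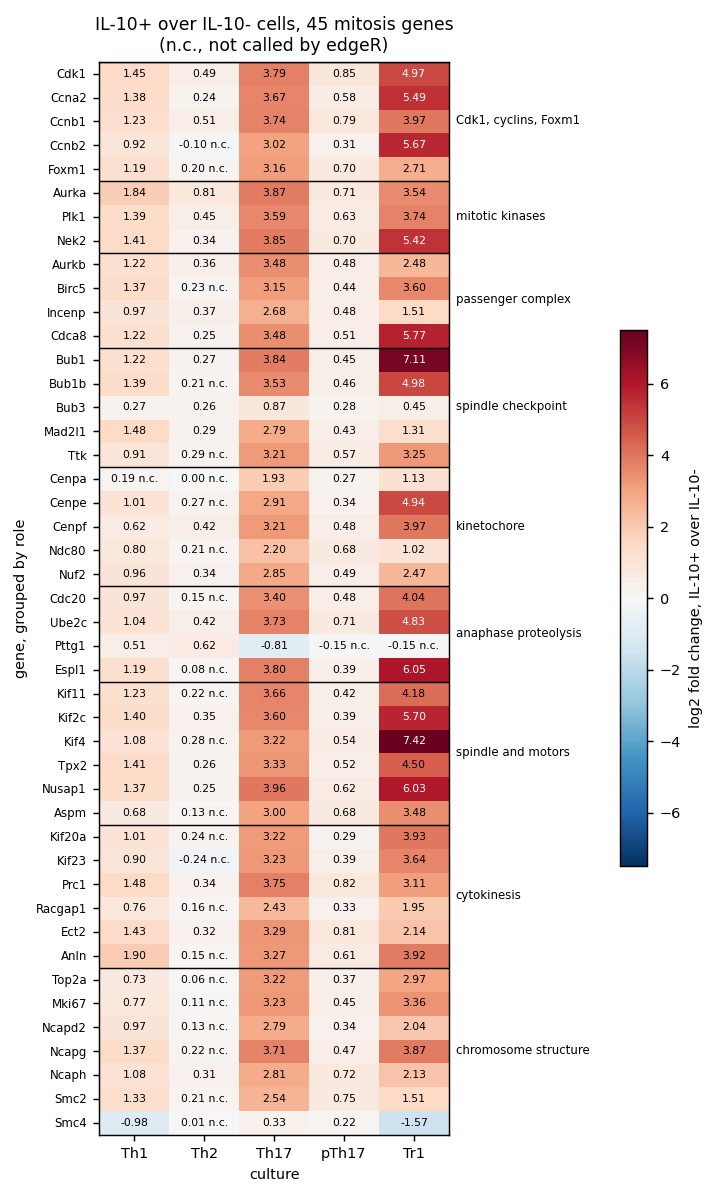
Log2 fold change, IL-10 positive over IL-10 negative, of each of the 45 genes (rows, by role) in the 5 cultures (columns), as fitted by edgeR to 3 libraries a group, with genes not called marked n.c. Nearly all cells are above 0, the Tr1 and Th17 columns are the strongest, and Smc4, Pttg1 and Bub3 differ from the others. Fitted values for Kif4, Bub1, Espl1 and Kif2c in Tr1 depend on the small prior count added in fitting, since their IL-10 negative libraries held 0 to 2 counts each.

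Levels were compared in TPM, a measure of transcript abundance scaled for depth and gene length. The median over the 45 genes was 16.5 to 21.7 TPM in IL-10 positive and 1.4 to 1.8 TPM in IL-10 negative Tr1 libraries. It was 80 to 84 TPM in IL-10 positive and 8.2 to 9.85 TPM in IL-10 negative Th17 libraries, and 26.2 to 33.4 TPM against 11.3 to 14 TPM in Th1 libraries. Groups did not overlap in any of these cultures. In pTh17 libraries it was 58.3 to 68.2 TPM in IL-10 positive and 36.7 to 40.4 TPM in IL-10 negative cells, and in Th2 libraries 88.6 to 95.8 TPM against 75 to 77.1 TPM. IL-10 negative Th2 cells thus held higher median levels than IL-10 positive cells of the Tr1, Th1 and pTh17 cultures. Of the 45 genes, 34 had their highest group mean in IL-10 positive Th2 cells and 43 their lowest in IL-10 negative Tr1 cells. The level left in IL-10 negative cells, as a share of that in IL-10 positive cells of the same culture, had a median of 8.18% in Tr1, 11.8% in Th17, 44.7% in Th1, 67.9% in pTh17 and 83.7% in Th2.

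**Figure D2:**
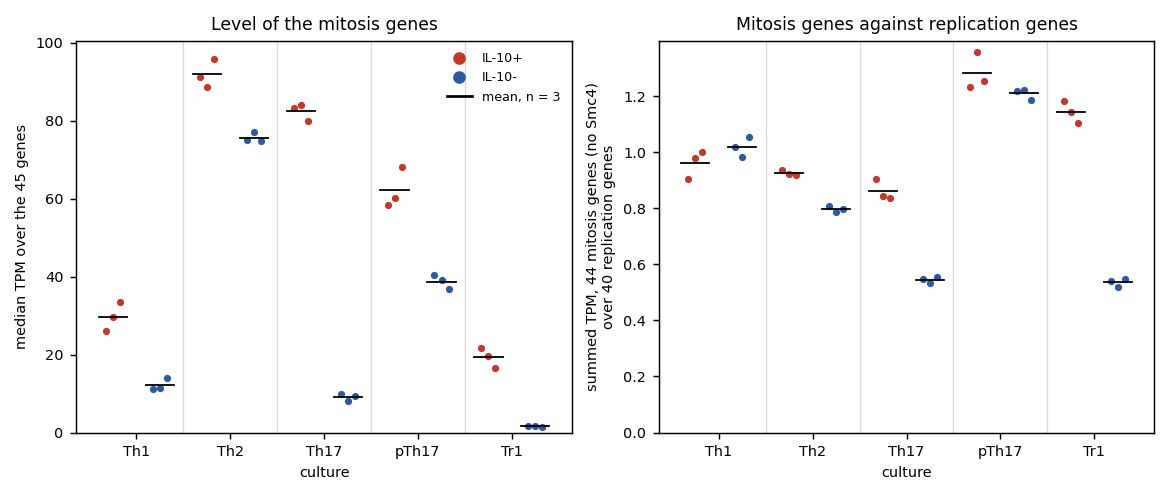
Left, the median TPM over the 45 genes in each library; right, the summed TPM of 44 of them (Smc4 left out) over that of 40 DNA replication genes. Points are libraries, bars are means of 3, and IL-10 positive groups stand left of IL-10 negative ones. Both measures are lowest in IL-10 negative Tr1 and Th17 cells, and the median is highest in IL-10 positive Th2 cells.

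Many mitotic promoters hold a CHR element, TTTGAA or TTCGAA, and CCAAT boxes, which are bound in other mammalian cells by the MuvB complexes and by NF-Y. RefSeq promoters of GRCm38.p6, from 250 bases before to 50 after the start, were matched by symbol for 38 of the 45 genes. TTTGAA was found on either strand in 28 of the 38 (73.7%), against 18.1% of all 27025 promoters of that length, and TTCGAA in 3 (7.89%, against 1.57%). CCAAT was found in 29 (76.3%, against 37.9%), and a CHR together with CCAAT in 26 (68.4%, against 7.7%). An E2F motif on either strand was found in 7 (18.4%, against 8.21%), with TTCCCGC counted as one, as was its relative TTGGCGC, whose other strand can share letters with CCAAT, and also the form TTCGCGC. Among the 38, the median mean difference was 1.9 in the 29 genes with a CHR and 1.76 in the 9 without. These are matches of letters and not shown to be sites. The promoters of 6 genes are printed from 130 bases before to 30 after the start, 5′ to 3′ along the gene, because these genes span the range of responses: Cdk1, Ccnb1, Ccnb2 and Ube2c with large differences, Bub3 with a small one, and Pttg1, whose difference varied in sign. Capitals mark a CHR or a CCAAT box, read on either strand, so that TTCAAA and ATTGG are the same elements on the other strand.
Cdk1 (chr10:69352883-69353042, minus strand): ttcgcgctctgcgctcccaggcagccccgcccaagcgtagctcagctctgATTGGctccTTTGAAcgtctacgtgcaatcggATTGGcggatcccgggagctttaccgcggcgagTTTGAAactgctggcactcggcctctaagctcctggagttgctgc
Ccnb1 (chr13:100786457-100786616, minus strand): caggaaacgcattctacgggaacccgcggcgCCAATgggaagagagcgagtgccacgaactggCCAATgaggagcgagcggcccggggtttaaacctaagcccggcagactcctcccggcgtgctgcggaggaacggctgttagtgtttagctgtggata
Ccnb2 (chr9:70421525-70421684, minus strand): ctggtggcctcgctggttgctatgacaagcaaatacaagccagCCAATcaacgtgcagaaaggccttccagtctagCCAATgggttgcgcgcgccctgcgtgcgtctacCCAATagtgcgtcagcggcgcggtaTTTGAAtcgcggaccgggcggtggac
Ube2c (chr2:164769799-164769958, plus strand): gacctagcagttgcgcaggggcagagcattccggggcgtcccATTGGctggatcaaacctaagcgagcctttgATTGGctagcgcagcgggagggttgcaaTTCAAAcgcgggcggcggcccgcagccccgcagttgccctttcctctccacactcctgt
Bub3 (chr7:131560240-131560399, plus strand): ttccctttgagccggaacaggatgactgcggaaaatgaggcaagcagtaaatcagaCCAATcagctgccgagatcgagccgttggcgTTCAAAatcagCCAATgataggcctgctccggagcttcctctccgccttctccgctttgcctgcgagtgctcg
Pttg1 (chr11:43425952-43426111, minus strand): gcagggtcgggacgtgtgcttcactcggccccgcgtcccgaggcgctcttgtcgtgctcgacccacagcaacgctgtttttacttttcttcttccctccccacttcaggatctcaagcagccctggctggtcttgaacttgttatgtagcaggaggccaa
The Bub3 stretch holds a CHR and a pair of CCAAT boxes, as Ube2c does, and neither CHR spelling searched lies in the Ccnb1 stretch. The Pttg1 stretch holds no match to a CHR or a CCAAT box, and the start used for it lies inside the gene as annotated. Other spellings of a CHR were not searched.

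Cdk1, the kinase that drives entry into mitosis, and its cyclins gave some of the clearest differences. Cdk1 (chromosome 10, 69335146 to 69352912, mm10) had 24.8, 21.3 and 15.1 TPM in IL-10 positive Tr1 libraries, against 1.25, 0.68 and 0.27 TPM in IL-10 negative ones. In Th17 libraries it had 93.5, 94.2 and 94.4 TPM in IL-10 positive and 8.16, 6.15 and 8.31 TPM in IL-10 negative cells. The groups lay far apart in both cultures, with log2 fold changes of 4.97 ± 0.24 (edgeR, adjusted p = 1.10e-19) and 3.79 ± 0.12 (adjusted p = 3.01e-25). Th2 libraries had 139, 135 and 139.7 TPM in IL-10 positive cells and 95.6, 97.6 and 101 TPM in IL-10 negative cells, which also did not overlap, for a log2 fold change of 0.49 ± 0.09. The values were 1.45 ± 0.12 in Th1 and 0.85 ± 0.09 in pTh17 cultures. Even the lowest IL-10 negative Th2 library held more Cdk1 than any Tr1 or Th1 library.

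Cyclin A2, encoded by Ccna2, is active in S phase and G2. It had 72.5, 63.7 and 55.2 TPM in IL-10 positive and 1.61, 1.67 and 1.27 TPM in IL-10 negative Tr1 libraries, a difference of 5.49 ± 0.14. The mitotic cyclin gene Ccnb1 had 41, 50.3 and 42.5 TPM in IL-10 positive and 3.64, 2.7 and 2.72 TPM in IL-10 negative Tr1 libraries, and 302, 291 and 304 TPM against 214, 206 and 207 TPM in Th2 libraries. Its IL-10 positive and negative libraries did not overlap in either culture (3.97 ± 0.16 and 0.51 ± 0.08). The related Ccnb2 behaved otherwise in Th2 cells, with 254, 247 and 238 TPM in IL-10 positive and 262, 266 and 263 TPM in IL-10 negative libraries, and was not called there (-0.10 ± 0.08, edgeR, adjusted p = 0.414). In Tr1 libraries Ccnb2 had 93.8, 80.5 and 60.8 TPM in IL-10 positive and 2.68, 0.78 and 1.4 TPM in IL-10 negative cells, one of the widest gaps of the set (5.67 ± 0.19). Foxm1, the transcription factor that activates many G2/M genes, was expressed at low levels throughout, at most 19.3 TPM in any library. It had 3.68, 4.14 and 3.96 TPM in IL-10 positive and 0.45, 0.44 and 0.88 TPM in IL-10 negative Tr1 libraries, with no overlap. It differed by 3.16 ± 0.21 in Th17 and 2.71 ± 0.33 in Tr1 cultures, and was not called in Th2 (0.20 ± 0.14, edgeR, adjusted p = 0.324).

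Among the mitotic kinases, Aurka matures centrosomes, Plk1 acts at centrosomes and kinetochores, and Nek2 splits the centrosome pair. All 3 rose in all 5 cultures. Aurka had 131, 119.8 and 122 TPM in IL-10 positive Th2 libraries and 69.8, 68.5 and 72.6 TPM in IL-10 negative ones, and its difference of 0.81 ± 0.11 was the largest of the 45 in that culture. In Tr1 libraries it had 16.6, 18.5 and 7.54 TPM in IL-10 positive and 2.35, 1.04 and 0.7 TPM in IL-10 negative cells, where the third IL-10 positive library, replicate 18, was low but still above all IL-10 negative ones. Plk1 had 27.8, 27 and 26.7 TPM in IL-10 positive and 2.56, 2.67 and 1.44 TPM in IL-10 negative Tr1 libraries, an even set on each side (3.74 ± 0.16). Nek2 differed by 5.42 ± 0.26 in Tr1 and 3.85 ± 0.14 in Th17 cultures.

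The chromosomal passenger complex, which corrects wrong attachments and later guides cytokinesis, is made of the kinase Aurkb, its scaffold Incenp, survivin (Birc5) and borealin (Cdca8). Its subunits did not differ equally in Tr1 cultures. Cdca8 gave 5.77 ± 0.26, Birc5 3.60 ± 0.16, Aurkb 2.48 ± 0.16 and Incenp 1.51 ± 0.13, whereas in Th17 cultures all 4 lay between 2.68 and 3.48. Birc5 had 103, 106 and 90.7 TPM in IL-10 positive and 2.74, 7.21 and 2.41 TPM in IL-10 negative Tr1 libraries. Aurkb had 52.1, 51.9 and 34 TPM in IL-10 positive and 10.6, 5.86 and 9.22 TPM in IL-10 negative Tr1 libraries. Both pairs of groups were apart, but IL-10 negative cells kept more of their Aurkb. In Th2 cultures 3 of the 4 were called, and Birc5 was not (0.23 ± 0.09, edgeR, adjusted p = 0.0534).

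The spindle checkpoint genes spanned the whole range of the set. Bub1, a kinase that recruits checkpoint proteins to kinetochores, had 8.65, 6.83 and 7.44 TPM in IL-10 positive and 0.18, 0 and 0 TPM in IL-10 negative Tr1 libraries. Its summed counts there were 250 in IL-10 positive and 2 in IL-10 negative libraries, a depth-scaled ratio of 157 with a 95% counting interval of 42.9 to 1301. By contrast Bub3, a WD-repeat protein that carries Bub1 and Bub1b to kinetochores, had 128, 136 and 117 TPM in IL-10 positive and 98.4, 96.8 and 99.4 TPM in IL-10 negative Tr1 libraries. The groups did not overlap, yet the difference was 0.45 ± 0.07 (edgeR, adjusted p = 4.02e-06). Bub3 (chromosome 7, 131560367 to 131571895, mm10) rose in all 5 cultures, by 0.87 ± 0.07 in Th17 and by 0.26 to 0.45 in the other 4. Mad2l1 had 36, 41.2 and 31.9 TPM in IL-10 positive and 18.5, 19.2 and 10.4 TPM in IL-10 negative Tr1 libraries, again apart. This gene, which encodes an inhibitor of the anaphase-promoting complex, differed by 1.48 ± 0.14 in Th1, 1.31 ± 0.16 in Tr1 and 2.79 ± 0.14 in Th17 cultures. Bub1b and Ttk, a checkpoint pseudokinase and kinase, differed by 4.98 ± 0.25 and 3.25 ± 0.43 in Tr1 cultures, and neither was called in Th2.

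Kinetochore genes formed the group with the lowest median in Th1 cultures (0.80). Cenpa, the histone H3 variant that marks centromeres, had 124, 132 and 129 TPM in IL-10 positive and 129, 97.3 and 118 TPM in IL-10 negative Th1 libraries. The groups overlapped and it was not called (0.19 ± 0.09, edgeR, adjusted p = 0.0713), but it was called with median-of-ratios size factors (0.25, adjusted p = 0.0174), with DESeq2, with no filter, and without Th1 IL-10 negative replicate 4 (0.31) or Tr1 IL-10 positive replicate 18 (0.24). Th2 libraries overlapped too, with 265, 270.5 and 270.3 TPM in IL-10 positive and 261, 261 and 277 TPM in IL-10 negative cells. In Tr1 libraries Cenpa had 105, 115 and 96.2 TPM in IL-10 positive and 48.8, 54.4 and 49.6 TPM in IL-10 negative cells (1.13 ± 0.10). Cenpe, a kinetochore motor, had 6.71, 5.7 and 5.05 TPM in IL-10 positive and 0.15, 0.34 and 0.13 TPM in IL-10 negative Tr1 libraries, far apart. It gave 4.94 ± 0.29 in the same culture, and Cenpf, which joins the outer kinetochore, gave 3.97 ± 0.22. Ndc80 and Nuf2 form 1 dimer that grips microtubules, and gave 1.02 ± 0.15 and 2.47 ± 0.21. Ndc80 had 18.2, 19.9 and 11.3 TPM in IL-10 positive and 7.5, 9.44 and 8.5 TPM in IL-10 negative Tr1 libraries, which did not overlap although replicate 18 of the IL-10 positive group came near.

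The genes of proteolysis at anaphase split. Ube2c, the ubiquitin-conjugating enzyme of the anaphase-promoting complex, had 147, 148 and 129.9 TPM in IL-10 positive and 6.86, 5.55 and 3.56 TPM in IL-10 negative Tr1 libraries. In Th17 libraries it had 475, 469 and 431 TPM in IL-10 positive and 30.4, 35.5 and 49 TPM in IL-10 negative cells. Its differences of 4.83 ± 0.16 and 3.73 ± 0.10 came with no overlap. Cdc20, the activator that brings substrates to that complex, had 53.1, 48.9 and 43.8 TPM in IL-10 positive and 1.83, 3.35 and 3.74 TPM in IL-10 negative Tr1 libraries (4.04 ± 0.20). Espl1, encoding separase, the protease that cuts cohesin, was expressed at low levels. It had 4.27, 2.32 and 3.73 TPM in IL-10 positive and 0.12, 0 and 0.04 TPM in IL-10 negative Tr1 libraries. In Tr1 cells its summed counts were 172 in IL-10 positive and 3 in IL-10 negative libraries, a ratio of 71.9 with a 95% counting interval of 24.2 to 352.

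Pttg1 (chromosome 11, 43420244 to 43427463, mm10) encodes securin, which holds separase inactive, and it went its own way. Th17 libraries had 35.5, 29.8 and 33.5 TPM in IL-10 positive and 57.6, 61.6 and 60.9 TPM in IL-10 negative cells, so that securin was lower in IL-10 positive cells with no overlap (-0.81 ± 0.14, edgeR, adjusted p = 2.83e-06). Th2 libraries had 65.3, 62.1 and 58 TPM in IL-10 positive and 39.6, 42 and 38.2 TPM in IL-10 negative cells, the opposite order (0.62 ± 0.12, adjusted p = 1.19e-04). Th1 libraries had 83.4, 106 and 114 TPM in IL-10 positive and 80.2, 59.6 and 66.2 TPM in IL-10 negative cells, also higher with IL-10 (0.51 ± 0.12). The other cultures overlapped. Tr1 libraries held 91.5, 76.9 and 71.7 TPM in IL-10 positive and 89.3, 82 and 94.2 TPM in IL-10 negative cells, and pTh17 libraries 65, 66.2 and 74.8 TPM against 76.6, 70.1 and 63.9 TPM. Neither Tr1 (-0.15 ± 0.12, edgeR, adjusted p = 0.371) nor pTh17 (-0.15 ± 0.12, adjusted p = 0.442) was called. The averaged difference was 0.00 ± 0.06 (adjusted p = 0.994), and the test that it is equal in the 5 cultures gave an adjusted p of 3.44e-08.

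The 6 spindle genes all rose in Tr1 cultures, with a median of 5.10 that rests in part on the imprecise fitted value of Kif2c. Kif11, the motor that pushes spindle poles apart, had 20.3, 16.7 and 15.3 TPM in IL-10 positive and 0.79, 0.84 and 1.22 TPM in IL-10 negative Tr1 libraries (4.18 ± 0.21). Kif4, a chromosome motor that also lies on the central spindle, had summed counts of 173 in IL-10 positive and 1 in IL-10 negative Tr1 libraries, a ratio of 217 with a 95% counting interval of 38.4 to 8617. Kif2c, a microtubule depolymerase, had summed counts of 176 in IL-10 positive and 4 in IL-10 negative Tr1 libraries, a ratio of 55.2 with an interval of 21.2 to 205. In TPM Kif2c had 11.4, 7.78 and 6.2 in IL-10 positive and 0, 0.27 and 0.18 in IL-10 negative Tr1 libraries. The bundling protein gene Nusap1 differed by 6.03 ± 0.23 in Tr1 and by 3.96 ± 0.12 in Th17 cultures, the largest of the 45 in Th17. Tpx2, which activates Aurora A on the spindle, gave 4.5 ± 0.20 and 3.33 ± 0.12 in these cultures. It had 17.4, 18.4 and 17.5 TPM in IL-10 positive and 1.24, 1.34 and 0.2 TPM in IL-10 negative Tr1 libraries. These did not overlap. Aspm, a spindle pole protein, gave 3.48 ± 0.25 and 3.0 ± 0.16.

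Cytokinesis genes were called in 4 of the 5 cultures without exception, and in Th2 cultures only Prc1 and Ect2 were called of the 6. Prc1, which bundles the central spindle, had 27.3, 19.8 and 20.5 TPM in IL-10 positive and 3.85, 3.19 and 1.65 TPM in IL-10 negative Tr1 libraries (3.11 ± 0.19). Kif20a, a central spindle motor, had 21.7, 21.4 and 18.1 TPM in IL-10 positive and 0.59, 1.8 and 1.56 TPM in IL-10 negative Tr1 libraries (3.93 ± 0.20). Kif23, the motor of centralspindlin, gave 3.64 ± 0.29. Its partner Racgap1, which with Ect2 controls the contractile ring, differed less in Tr1 cells (1.95 ± 0.09), with 100.2, 95.5 and 86.1 TPM in IL-10 positive and 25.2, 25.4 and 26.6 TPM in IL-10 negative libraries. Kif23 had 91.4, 81 and 97.2 TPM in IL-10 positive and 107, 102 and 108 TPM in IL-10 negative Th2 libraries. These groups did not overlap, but the difference of -0.24 ± 0.11 was not called (edgeR, adjusted p = 0.131). DESeq2 and a fit of the 6 Th2 libraries alone did call it lower, at adjusted p of 0.0315 and 0.00332. Anln, the ring scaffold anillin, gave the largest difference of the 45 in Th1 cultures (1.90 ± 0.30), at 1.9, 3.07 and 3.88 TPM in IL-10 positive and 0.43, 0.96 and 0.96 TPM in IL-10 negative libraries.

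Chromosome structure genes include Top2a, the topoisomerase that untangles sister chromatids, and Mki67, the chromosome surface protein used as a proliferation marker. Top2a had 67.6, 47.6 and 57.9 TPM in IL-10 positive and 8.06, 9.35 and 6.25 TPM in IL-10 negative Tr1 libraries. Mki67 had 16.7, 12.4 and 15.6 TPM in IL-10 positive and 1.34, 2.08 and 1.25 TPM in IL-10 negative Tr1 libraries. Both were several-fold apart without overlap (2.97 ± 0.11 and 3.36 ± 0.13), and both were uncalled in Th2 cultures (0.06 ± 0.08 and 0.11 ± 0.08, edgeR, adjusted p = 0.676 and 0.376). The condensin I subunits Ncapd2, Ncapg and Ncaph, which compact chromosomes, gave 2.04 ± 0.10, 3.87 ± 0.19 and 2.13 ± 0.19 in Tr1 cultures. Ncapd2 had 36.7, 31.8 and 26.4 TPM in IL-10 positive and 7.79, 9.09 and 7.43 TPM in IL-10 negative Tr1 libraries, which did not overlap. Smc2, an ATPase subunit of both condensins, gave 1.51 ± 0.13.

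Smc4 (chromosome 3, 69004738 to 69034623, mm10), the ATPase partner of Smc2, fell in Tr1 and Th1 cultures, where the other condensin genes among the 45 rose. Tr1 libraries had 159, 158 and 133 TPM in IL-10 positive and 448, 498 and 458 TPM in IL-10 negative cells, with no overlap and a log2 fold change of -1.57 ± 0.06 (edgeR, adjusted p = 1.13e-22). Th1 libraries had 53.5, 55.5 and 59.5 TPM in IL-10 positive and 109, 114 and 117 TPM in IL-10 negative cells, again lower with IL-10 (-0.98 ± 0.06, adjusted p = 2.61e-16). In Th17 and pTh17 cultures it was higher in IL-10 positive cells (0.33 ± 0.06 and 0.22 ± 0.06), the last of which was lost without pTh17 IL-10 positive replicate 13. Th2 libraries overlapped, at 142, 138 and 137 TPM in IL-10 positive and 142, 134 and 138 TPM in IL-10 negative cells. The test that its difference is equal in the 5 cultures gave an adjusted p of 8.44e-22. In IL-10 negative Tr1 libraries Smc4 alone made up 53.8% to 56.7% of the summed TPM of the 45 genes, against 9.03% to 9.29% in IL-10 positive Tr1 libraries. Smc4 hosts the microRNA genes Mir15b and Mir16-2, which are not used here. The libraries carry no strand, so reads of overlapping genes cannot be told apart, and 9 of the 45 overlap another protein-coding gene: Ccna2, Aurka, Cdc20, Nusap1, Kif20a, Prc1, Anln, Ncapg and Foxm1.

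**Figure D3:**
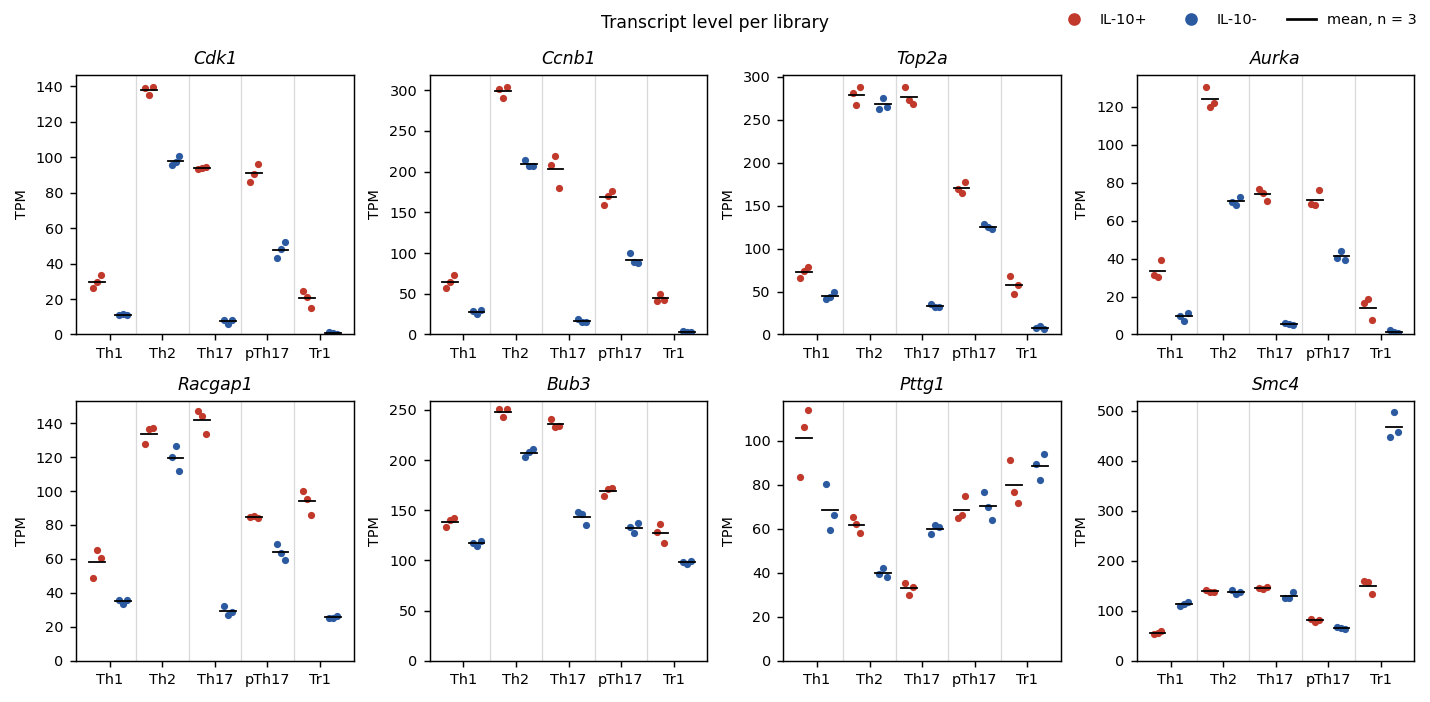
TPM per library of 8 of the genes in the 5 cultures, IL-10 positive left of IL-10 negative; points are libraries and bars are means of 3. Cdk1, Ccnb1, Top2a, Aurka and Racgap1 are higher in IL-10 positive cells of Tr1, Th17, Th1 and pTh17 cultures, Bub3 is higher in IL-10 positive cells of each culture by at most 1.83-fold (edgeR), Pttg1 changes order between cultures, and Smc4 is highest in IL-10 negative Tr1 cells.

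The size of the IL-10 difference depended on the culture for all 45 genes (edgeR, test of equality over the 5 cultures), as it did for 60.7% of all genes tested. The Tr1 difference exceeded the Th2 difference in 42 genes and was below it in 2, where 13.1% of all genes were above and 7.99% below. It exceeded the Th1 difference in 38 genes and was below it in 2 (11.2% and 7.19% of all genes). In both, the exceptions were Pttg1 and Smc4. These comparisons share the Tr1 libraries, and Kif4 stood at the top of both by fitted values that rest on 1 count in IL-10 negative Tr1 cells. Against Th1, the calls of Anln, Foxm1 and Incenp were lost without 1 library or another. The Th17 difference exceeded the pTh17 difference in 43 genes and was below it in 1, Pttg1 (23.3% and 19.9% of all genes). Espl1 gave the widest gap there, 3.41 ± 0.24. The Th1 difference exceeded the Th2 difference in 39 genes and was below it in 1, Smc4 (12.4% and 7.92% of all genes), with Anln at the top (1.75 ± 0.35).

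Tr1 and Th17 cultures had similar medians but differed gene by gene. The Tr1 difference was larger in 16 genes and smaller in 12, where 21% of all genes were larger and 17.5% smaller. Larger in Tr1 were Ccna2 (1.81 ± 0.21), Ccnb2 (2.65 ± 0.28), Cdca8 (2.29 ± 0.39), Nusap1 (2.07 ± 0.37), Cenpe (2.02 ± 0.41) and Ube2c (1.10 ± 0.24). Smaller in Tr1 were Mad2l1 (-1.48 ± 0.22), Ndc80 (-1.18 ± 0.19), Incenp (-1.17 ± 0.17), Smc2 (-1.02 ± 0.17), Cenpa (-0.80 ± 0.14), Ncapd2 (-0.75 ± 0.13) and Smc4 (-1.90 ± 0.08). Pttg1 counted among the 16 (0.66 ± 0.18) because its Th17 difference was negative. Without Tr1 IL-10 negative replicate 18, Cdk1 (1.19 ± 0.36), Tpx2 (1.17 ± 0.29) and Espl1 were no longer called, with 0.71 for Cdk1 and 0.56 for Tpx2. Espl1 was also lost without Tr1 IL-10 negative replicate 17, Kif20a without any of 6 libraries (Th17 IL-10 negative 10 and 12, Th17 IL-10 positive 12, Tr1 IL-10 negative 16, Tr1 IL-10 positive 16 and 17), and Ncaph without Th17 IL-10 negative 11 or Tr1 IL-10 negative 16. Each of the other 23 kept its call without each of the 30 libraries.

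**Figure D4:**
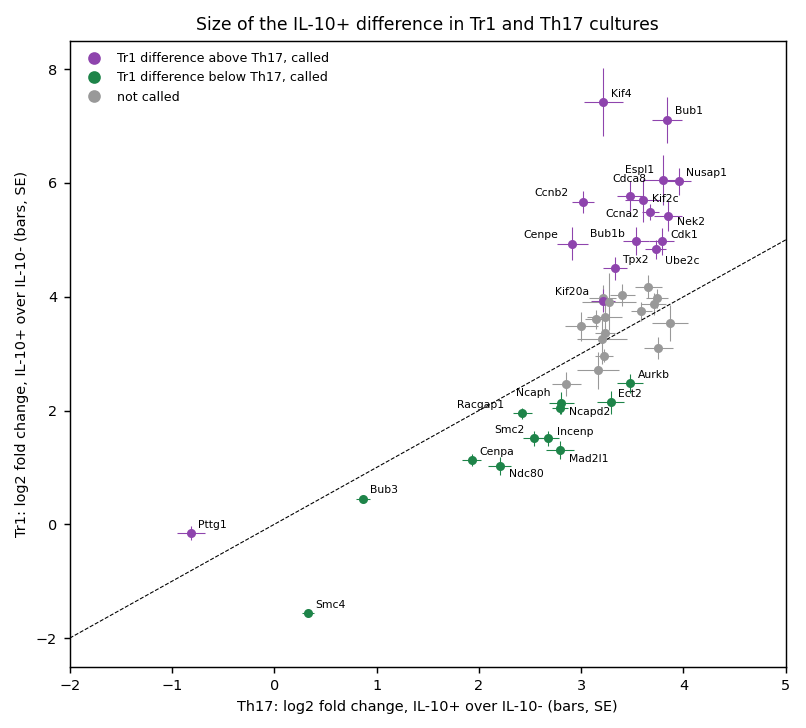
Log2 fold change, IL-10 positive over IL-10 negative, of each gene in Tr1 (vertical) and Th17 (horizontal) cultures, with standard errors as bars and equality as a dashed line. Coloured genes are those whose 2 differences differ by edgeR's test, 16 above the line and 12 below; fitted values of Kif4, Bub1, Espl1 and Kif2c depend on the prior count.

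Cultures were also compared within the IL-10 positive and within the IL-10 negative cells. All 45 genes differed among the 5 IL-10 positive groups and all 45 among the 5 IL-10 negative groups, close to the 92.2% and 88.2% of all genes that did. In IL-10 positive cells Tr1 was lower than Th1 in 36 genes and higher in 2 (median -0.52), where 28.1% of all genes were lower and 27.5% higher. The pair that was higher was Racgap1 (0.55 ± 0.08) and Smc4 (1.27 ± 0.06), and Aurka was the lowest (-1.40 ± 0.16). In IL-10 negative cells Tr1 was lower than Th1 in 42 genes and higher in 1, Smc4 (median -3.01), where 24.6% of all genes were lower and 16.8% higher. The lowest fitted value was that of Kif4, with 1 count in the Tr1 group. Without Th1 IL-10 negative replicate 4 Pttg1 was called higher as well, for 2 genes. The test of whether the IL-10 difference is the same in Tr1 and Th1, given above, is also the test of whether these 2 gaps are the same.

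The Th17 forms differed in opposite directions in IL-10 positive and in IL-10 negative cells. In IL-10 positive cells pTh17 was lower than Th17 in 23 genes and higher in 6 (median -0.24), against 28.9% lower and 27.8% higher among all genes. Without 1 library or another the lower genes numbered 19 to 27, and 18 of the 23 kept their call without each of the 30. The genes higher were Ccnb2, Cenpa, Aspm, Ube2c, Anln and Pttg1 (1.27 ± 0.13), and without pTh17 IL-10 positive replicate 15 they were 3. Kif20a was the lowest (-0.78 ± 0.10). In IL-10 negative cells pTh17 was higher than Th17 in 44 genes and lower in 1, Smc4 (median 2.61), against 31.1% higher and 28.9% lower, with Espl1 at the top (3.49 ± 0.20). Th2 cells held more than Th1 cells on both sides. Among IL-10 positive cells 44 genes were higher and 1 lower (median 1.65, against 32.2% and 31.3% of all genes), and among IL-10 negative cells also 44 and 1 (median 2.57, against 31.1% and 33.8%). The lower gene was Pttg1 in both (-0.81 ± 0.11 and -0.92 ± 0.12), and Kif23 was the highest in both (2.90 ± 0.13 and 4.03 ± 0.15).

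Other mitotic genes moved with the 45. Of 70 further mitosis genes tested, 66 rose in Tr1, 70 in Th17, 61 in Th1, 47 in pTh17 and 20 in Th2 cultures, and 1 fell in Th1 and none in the other 4. Of all genes tested 20.5% were higher in Tr1, 29.2% in Th17, 23.5% in Th1, 10.1% in pTh17 and 12.3% in Th2. In these cultures 8.33% to 28.9% were lower. Hjurp, the chaperone of Cenpa, was of opposite sign on average (-0.12 ± 0.05). Those with the smallest p in the averaged comparison were Tacc3, which stabilises spindle microtubules, the tubulin gene Tuba1b, and the spindle proteins Ckap2l and Dlgap5, at 1.70 ± 0.04, 0.96 ± 0.03, 2.11 ± 0.07 and 1.68 ± 0.05. Genes of the anaphase-promoting complex and its regulators had lower medians. Of these 17 genes 7 rose in Tr1 (median 0.14) and 15 in Th17 cultures (median 0.62), where 20.5% and 29.2% of all genes were higher. The 7 were the subunits Anapc5, Anapc11, Anapc13 and Anapc15 (0.42 ± 0.07, 0.39 ± 0.14, 0.51 ± 0.17 and 0.90 ± 0.22), the activator Fzr1 (0.62 ± 0.21), the ubiquitin-conjugating enzyme Ube2s (0.75 ± 0.25) and the inhibitor Fbxo5 (1.86 ± 0.21). Of 12 cohesin genes, which hold sister chromatids together, 2 rose and 6 fell in Tr1, where 20.5% of all genes were higher and 14.2% lower, with the acetyltransferase Esco2 at 4.49 ± 0.34 and the loader Nipbl at -0.55 ± 0.08. Among 11 regulators of Cdk1, the phosphatase Cdc25c gave 3.71 ± 0.24 in Th17, and the inhibitory kinases Wee1 and Pkmyt1 rose too (2.15 ± 0.25 and 2.40 ± 0.13). Ensa, which restrains the phosphatase that opposes Cdk1, was among those of opposite sign on average (-0.16 ± 0.04). Cdc25b, another phosphatase of that list, was called lower in Tr1 (-0.32 ± 0.06) and Th2 (-0.34 ± 0.05) and higher in Th1 (0.34 ± 0.06).

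DNA replication genes, expressed from G1/S on, had a lower median difference than the mitotic genes in Tr1 cultures. Of 40 tested, 35 rose with a median of 1.19, against 3.64 for the mitotic 45. In Th17 cultures 40 rose (median 2.51), in Th1 37 (median 1.16), in pTh17 33 (median 0.43) and in Th2 3 (median 0.06). The shares of all genes higher, in the same order, were 29.2%, 23.5%, 10.1% and 12.3%, and 20.5% in Tr1. The Th2 count did not exceed its share. Averaged over cultures, Rrm2, a subunit of ribonucleotide reductase, gave 1.93 ± 0.05 and the helicase subunit Mcm5 1.37 ± 0.04. The summed TPM of the 45 over that of the 40 was 1.26 ± 0.043 in IL-10 positive and 1.2 ± 0.034 in IL-10 negative Tr1 cells (SD, n = 3 each). Without Smc4, left out after its values were seen, it was 1.14 ± 0.039 in IL-10 positive and 0.535 ± 0.015 in IL-10 negative Tr1 cells. On that basis it was 0.861 ± 0.036 in IL-10 positive and 0.545 ± 0.013 in IL-10 negative Th17 cells, 0.925 ± 0.0095 and 0.797 ± 0.011 in Th2, and 1.28 ± 0.065 and 1.21 ± 0.019 in pTh17. Th1 cells had the opposite order, with 0.961 ± 0.051 in IL-10 positive and 1.02 ± 0.036 in IL-10 negative cells, and their libraries overlapped. With Smc4 the Th1 ratios were 0.989 ± 0.052 in IL-10 positive and 1.13 ± 0.033 in IL-10 negative cells and did not overlap. The ratios without Smc4 still hold Bub3 and Pttg1, which had 96.8 to 99.4 TPM and 82 to 94.2 TPM in IL-10 negative Tr1 libraries. The remaining mitotic genes summed there to 168.5 to 200.7 TPM, so that Bub3 and Pttg1 weigh heavily in that ratio.

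Genes that restrain the cycle moved both ways. Among 6 CDK inhibitors tested, Cdkn1a (p21) was higher in IL-10 positive cells of all 5 cultures, by 2.79 ± 0.18 in Th1, 2.54 ± 0.20 in Th17, 2.35 ± 0.47 in Tr1, 1.67 ± 0.13 in Th2 and 0.89 ± 0.12 in pTh17. Cdkn1b (p27), an inhibitor kept in resting cells, fell in Th17 (-0.87 ± 0.10), Th1 (-0.71 ± 0.11) and Tr1 cells (-0.68 ± 0.10). Among 19 genes of the E2F and DREAM regulators, the repressors E2f7 and E2f8 gave 3.48 ± 0.27 and 3.42 ± 0.19 in Th17, and the retinoblastoma gene Rb1 fell there (-0.52 ± 0.11). Of 11 genes of quiescence and naive state, 8 fell and 1 rose in Tr1, and 10 fell and 1 rose in Th17. All genes tested gave 14.2% lower and 20.5% higher in Tr1, and 28.9% and 29.2% in Th17. Among those that fell was the transcription factor gene Tcf7 (-1.21 ± 0.07 and -1.16 ± 0.06). The gene that rose in Th17 was Il7r, the IL-7 receptor (1.00 ± 0.12), which was not called in Tr1 (0.15 ± 0.14), and the gene that rose in Tr1 was Slfn2 (0.17 ± 0.06). Of the 5 genes of D-type cyclins and their kinases, 3 rose in Tr1, where 20.5% of all genes were higher. They included Ccnd3 (1.20 ± 0.07) and Cdk6 (0.68 ± 0.17).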

How the data were processed

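The labels' protocols describe an adapted SMART-Seq2 method, with no molecular identifiers and no strand, so intervals cover counting error only. The authors deposited expected counts and TPM for each gene, per the file headers. RSEM and mm10 appear in the submitters' processing notes, and the aligner is not given in the sources used here. Titles gave groups and replicate numbers; the protocol words both sorted populations as Thy1.1 positive, so the titles were followed.

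Expected counts were rounded, filtered by filterByExpr and scaled by TMM. All 30 libraries entered 1 edgeR fit (4.0.16, R 4.3.3) with a mean per group and two-sided quasi-likelihood tests, adjusted by Benjamini-Hochberg over 12611 genes (threshold 0.05). Standard errors were derived from the F statistic. Low counts have exact 95% binomial intervals. DESeq2 1.42.0 and limma 3.58.1 served as alternatives. The fits were tested on simulated data with changes in Tr1 only. The Tr1 comparison recovered 14% of 1.25-fold, 72% of 1.5-fold and 96% of 2-fold changes, so that small differences can go uncalled. Of its calls 4.73% were false, against 7.03% for the test of equality over cultures. The simulated Tr1 comparison called 148 of 12352 genes, where the real one called 2591 higher and 1786 lower. These rates therefore need not hold for the data. Promoters and coordinates came from RefSeq (GRCm38.p6, the assembly of mm10).

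The 45 genes and all lists were chosen with earlier results of these data known. Any of the 45 could be named, and library values were given for a listed set of up to 30 and for those uncalled or opposite in sign where most were called. Other lists supplied up to 4 genes by smallest p in the averaged comparison and those of opposite sign. Cdc25b was also named, because its calls differed in sign. Leaving Smc4 out of a ratio was chosen after seeing the data.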

Additional observations from a re-analysis of the deposited data

Results flagged for a closer look

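All 45 genes had an IL-10 difference that was not equal in the 5 cultures (edgeR, adjusted p below 0.05), as did 60.7% of all genes tested. In pairs of cultures, the difference was larger in Tr1 than in Th2 for 42 genes and smaller for 2 (13.1% and 7.99% of all genes), larger in Tr1 than in Th1 for 38 and smaller for 2 (11.2% and 7.19%), and larger in Tr1 than in Th17 for 16 and smaller for 12 (21% and 17.5%). It was larger in Th17 than in pTh17 for 43 genes and smaller for 1 (23.3% and 19.9%), and larger in Th1 than in Th2 for 39 and smaller for 1 (12.4% and 7.92%).

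Smc4 and Pttg1 were each called in opposite directions in different cultures. Smc4 was lower in IL-10 positive Tr1 and Th1 cells and higher in IL-10 positive Th17 and pTh17 cells (edgeR, equality over cultures, adjusted p = 8.44e-22). Pttg1 was lower in IL-10 positive Th17 cells and higher in IL-10 positive Th1 and Th2 cells (adjusted p = 3.44e-08).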

How the results depend on the processing

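No called gene changed direction under any alternative. The alternatives were median-of-ratios size factors, DESeq2, no filter on low counts, the replicate number as a block, fits of 6 libraries, counts thinned to 1 depth, limma-trend on log2(TPM + 1), and each of the 30 libraries left out. In Tr1, Th17 and the averaged comparison the counts of genes higher and lower were the same in each of these, except that 6 libraries of 1 culture give no average. The Th2 count of 22 genes higher was 10 with limma-trend and 32 in the fit of its 6 libraries, and ran from 11 to 27 over fits without 1 library. DESeq2 and the fit of 6 libraries each called 1 gene lower in Th2, Kif23. Without 1 library, the genes higher in Tr1 than Th1 among IL-10 negative cells numbered 1 to 2, and those higher in pTh17 than Th17 among IL-10 positive cells 3 to 6. The cause was not tested. Over all genes, another scaling moved the median by at most 0.058 (log2).

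No clear pairing of libraries by replicate number was seen, but weak correlations cannot show its absence, since noise of single libraries can hide it. Same-numbered IL-10 positive and negative libraries correlated in their deviations from group means at -0.046 to 0.055 in 15 pairs. Of the 15 pairs 6 correlated best with their own number, each of the Th2 pairs among them (0.017 to 0.028). With the replicate number as a block, 25 genes were higher in Th2 and 43 in pTh17, and the other counts of IL-10 comparisons stayed within 1 of those without it. Kif20a was then no longer called for Tr1 against Th17 (edgeR, adjusted p = 0.0556), nor was it without a filter on low counts (adjusted p = 0.0544). Levels below about 1 TPM, as in IL-10 negative Tr1 cells, rest on few counts, and their fold changes are imprecise.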
